A study of Mus musculus with 12 samples.

Results

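Catalase, the peroxiredoxins and the glutathione peroxidases are the enzymes that remove hydrogen peroxide and organic peroxides from mammalian cells. Their transcripts were measured here in kidney proximal tubules of diabetic mice and of mice that carry a catalase transgene. Of 10 genes looked for (Cat, Prdx1 to Prdx6, Gpx1, Gpx3 and Gpx4), 7 had a probe set on the array whose annotation gives that gene's symbol alone. Both Cat probe sets and the brightest probe set of each other gene were followed, 8 of the 45037 probe sets of the array. All 8 lay above 4 (log2), the level used as a filter, on all 12 arrays. The 5 probe sets of Prdx1 also carry the symbol of the pseudogene Gm21399, so Prdx1 was given no value, and Prdx5 and Prdx6 were not analysed here.

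Tubules were isolated on Percoll from mice aged 20 weeks on a normal diet, and their RNA was hybridised to 12 Affymetrix arrays in 4 groups of 3. The groups were wild type, catalase-Tg (otherwise wild-type mice with a catalase transgene), dB/dB, and dB/dB catalase-Tg, which have both. The dB/dB mutation disables the leptin receptor and leads to obesity and diabetes. From work on these mice, and not from the labels, the transgene encodes rat catalase under the Kap promoter, that of an androgen-regulated kidney protein, which is active in proximal tubule cells and responds to androgen. Whether the mouse Cat probe sets also read the rat transcript was not tested, so they do not check the labels. Sex is not labelled, nor whether a group's samples were separate animals, and the p-values therefore measure only the spread between samples, which may be technical. The transgene was compared in wild-type mice (catalase-Tg against wild type) and in dB/dB mice (dB/dB catalase-Tg against dB/dB), and the dB/dB state was compared without the transgene (dB/dB against wild type) and with it (between the transgenic groups). The interaction asks whether the transgene difference depended on the dB/dB state.

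Catalase sits in peroxisomes and splits hydrogen peroxide into water and oxygen without using up a reductant. Glutathione peroxidases reduce peroxides with glutathione: Gpx1 works in the cytosol and mitochondria, Gpx3 is made by the proximal tubule and secreted into plasma, and Gpx4 reduces peroxidised lipids in membranes. All 3 carry selenocysteine. Peroxiredoxins use a reactive cysteine that thioredoxin recharges. Prdx2 is cytosolic and very abundant in red blood cells, Prdx3 is mitochondrial and Prdx4 lies in the endoplasmic reticulum. The proximal tubule is rich in both peroxisomes and mitochondria.

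Stretches of 250 bases upstream of the annotated start of 3 members are shown. Cat and Gpx1 went up and down together from array to array, and the brighter Prdx2 probe set went the other way. The sequences are RefSeq's for build GRCm38.p6 and read 5′ to 3′ along the gene. Cat's stretch is chr2:103485154-103485403 on the minus strand, Gpx1's is chr9:108338830-108339079 on the plus strand and Prdx2's is chr8:84969372-84969621 on the plus strand. Capitals mark each CCAAT or ATTGG and each GGGCGG or CCGCCC.
Cat: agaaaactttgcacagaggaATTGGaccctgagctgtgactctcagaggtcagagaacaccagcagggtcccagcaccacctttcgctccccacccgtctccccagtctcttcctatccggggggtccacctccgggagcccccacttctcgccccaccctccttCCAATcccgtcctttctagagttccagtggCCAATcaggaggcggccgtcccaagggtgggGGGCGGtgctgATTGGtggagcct
Gpx1: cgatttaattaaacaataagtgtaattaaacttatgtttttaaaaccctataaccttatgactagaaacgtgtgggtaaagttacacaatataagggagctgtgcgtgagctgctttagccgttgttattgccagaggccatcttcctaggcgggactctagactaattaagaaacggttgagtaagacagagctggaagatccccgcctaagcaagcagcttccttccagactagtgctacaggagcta
Prdx2: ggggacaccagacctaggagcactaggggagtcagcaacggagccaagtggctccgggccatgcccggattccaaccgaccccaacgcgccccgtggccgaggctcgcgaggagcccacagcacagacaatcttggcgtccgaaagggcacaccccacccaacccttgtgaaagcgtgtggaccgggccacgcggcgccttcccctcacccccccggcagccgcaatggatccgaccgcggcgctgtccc

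Cat holds CCAAT at 85 and 55 bases before the start, the same box on the other strand (ATTGG) at 230 and 13, and GGGCGG at 24. It also holds AGGTCA, a motif that nuclear receptors can recognise, at 204. Neither the Gpx1 nor the Prdx2 stretch holds any of the 5 motifs searched on both strands. The 7 genes have 10 such stretches in the RefSeq table, 4 of them of Gpx4. CCAAT or ATTGG was present in 6 of the 10 (3 of them of Gpx4), against 33.8% of 32851 stretches of the same length, and GGGCGG or CCGCCC in 7 (3 of Gpx4), against 32.7%. AGGTCA or TGACCT was present in 3 (14.0% of all stretches), TATAAA or TTTATA in 1 (12.4%), and TGACNNNGC or GCNNNGTCA, the core of the antioxidant response element, in 0 of the 10 (10.2%). The motifs do not overlap one another in Cat. A match describes these letters and is not a measured binding site.

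Several arrays stood apart from their groups. limma's array weights, which are low for arrays far from their group, were lowest for dB/dB catalase-Tg 1 (0.172), wild type 1 (0.227) and catalase-Tg 1 (0.287). Across all probe sets wild type 1 and dB/dB catalase-Tg 1 correlated best with the dB/dB arrays, and the other arrays of these groups with catalase-Tg. Among the proximal tubule markers, Slc34a1 (the phosphate transporter) read 12.84 to 14.07 and Lrp2 (megalin) 10.39 to 13.36 (log2). Markers of other cells were present too: Umod of the thick ascending limb read 12.49 to 14.83 and Plvap of endothelium 5.17 to 8.81, while Aqp2 of the collecting duct stayed at the floor of the values, 2.30. Xist, a transcript of female cells, read 11.91 on wild type 2 and 6.72 on wild type 3 against 2.31 to 2.67 on the other 10 arrays. Eif2s3y, a gene of the Y chromosome, read 2.30 on wild type 2, 7.89 on wild type 3 and 7.88 to 8.93 on the others. By these transcripts the wild-type arrays were not alike in sex. The part of sex in the comparisons with wild type was not tested. Kap, whose promoter drives the transgene, read 8.63, 11.70 and 15.23 on wild type 1 to 3 and 8.46, 15.26 and 15.22 on catalase-Tg 1 to 3. The dB/dB arrays read 13.59, 12.79 and 13.70 for Kap, and the dB/dB catalase-Tg arrays 13.04, 15.29 and 14.62. How far the transgene followed Kap was not tested. Results are therefore given for all 12 arrays and, where it matters, without the 3 arrays of low weight, which were picked from these same values.

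Cat signal was high in every group, and no comparison of groups with all arrays passed the test. The brighter of its probe sets (1416429_a_at) read 10.66, 12.68 and 12.43 (log2) on wild type 1 to 3 and 11.98, 12.42 and 12.39 on catalase-Tg 1 to 3. It read 12.24, 12.36 and 12.56 on the dB/dB arrays and 11.78, 12.64 and 12.90 on the dB/dB catalase-Tg arrays. Wild type 1 was the lowest of the 12, and the ranges of all 4 groups overlapped. From the lowest up, group means were 11.92 ± 1.10 (SD, n = 3) for wild type, 12.27 ± 0.24 for catalase-Tg mice, 12.39 ± 0.16 for dB/dB mice and 12.44 ± 0.59 for dB/dB mice with the transgene, and no neighbours in this order differed by more than the larger SD.

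The dimmer Cat probe set (1416430_at) read 10.24, 12.62 and 12.01 (log2) in wild type and 11.45, 12.33 and 12.44 with the transgene alone. The dB/dB arrays read 11.56, 11.39 and 11.82, and the dB/dB catalase-Tg arrays 11.43, 12.68 and 12.69. In every group but dB/dB, the first array lay below the other 2 in both probe sets. The dB/dB arrays lay close together here, with a mean of 11.59 ± 0.22 (SD, n = 3), and wild type spread most, with 11.63 ± 1.24. The means of catalase-Tg and dB/dB catalase-Tg were 12.07 ± 0.54 and 12.27 ± 0.73.

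**Figure D1:**
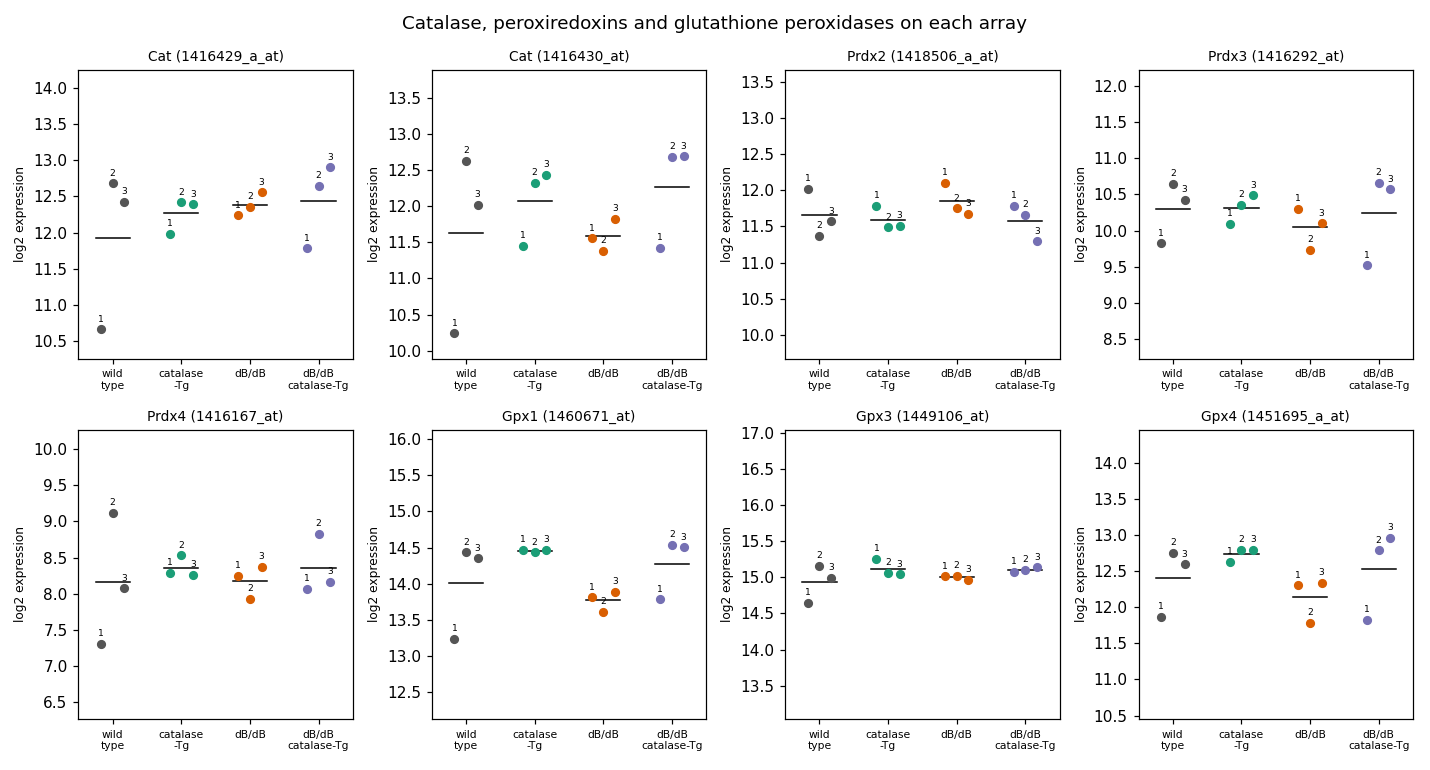
Log2 expression (vertical axis, the same span of values in every panel) of the 8 probe sets on each of the 12 arrays, by group. Points are arrays, numbered by replicate, and lines are group means; wild type 1 is the lowest point for both Cat probe sets, Prdx4, Gpx1 and Gpx3.

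The transgene comparison, read at the mouse Cat probe sets, gave small differences with wide errors. Catalase-Tg exceeded wild type by 0.34 (log2, SE 0.48) at the brighter probe set and by 0.44 (SE 0.57) at the dimmer, with limma adjusted p = 0.843 and 0.822. The corresponding intervals ran from -0.72 to 1.40 and from -0.82 to 1.71. In dB/dB mice the transgenic arrays exceeded the others by 0.06 (SE 0.48, adjusted p = 0.972) and 0.68 (SE 0.57, adjusted p = 0.685), the latter a 1.60-fold difference with an interval from -0.59 to 1.94. Averaged over both backgrounds, the transgene differences were 0.20 and 0.56, with p = 0.67 and 0.22 in a two-sided exact permutation test over 400 arrangements of the arrays within each background, whose smallest possible p is 0.005. Without wild type 1 the first of these averages was -0.12. The interaction of both factors did not pass for either probe set (adjusted p = 1).

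Without the 3 arrays of low weight, the transgene difference in dB/dB mice at the dimmer Cat probe set was 1.10 (limma adjusted p = 0.00945), and with limma's array weights it was 0.98 (adjusted p = 0.0121). Over the 21 alternatives run, its adjusted p ranged from 0.00945 to 1 and was under 0.05 in those 2. At the brighter probe set the same comparison did not pass in either fit. Without those arrays the dimmer probe set was also lower in dB/dB than in wild type, by -0.73 (adjusted p = 0.0383), with only the Xist-carrying wild type 2 and wild type 3 left in that group. In these fits much of the array passed as well: for the transgene in dB/dB mice, 5043 of 18144 probe sets (27.8%) without the 3 arrays and 6989 (38.5%) with weights, against 1 with all arrays weighted alike. For dB/dB against wild type it was 4875 (26.9%) without the 3 arrays.

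The 2 Cat probe sets went up and down together over the 12 arrays (r = 0.90), but their distance was not constant. The brighter minus the dimmer value was 0.42, 0.06 and 0.41 (log2) in wild type and 0.53, 0.09 and -0.04 in catalase-Tg. It was 0.68, 0.97 and 0.74 on the dB/dB arrays and 0.35, -0.04 and 0.21 on the dB/dB arrays with the transgene. All 3 dB/dB arrays without the transgene thus lay above the other 9, with a mean offset of 0.80 ± 0.15 (SD, n = 3) against 0.18 ± 0.20 in their transgenic counterparts. Among 4121 genes with at least 2 probe sets past the filter, the brightest 2 showed this arrangement, dB/dB all higher, in 40 genes (0.971%), and the reverse in 22. The pattern was noticed after the values had been seen and was given no test.

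**Figure D2:**
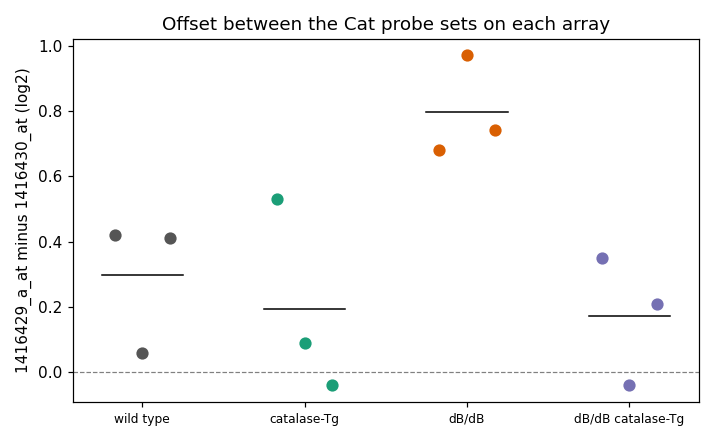
Log2 value of the brighter Cat probe set minus that of the dimmer (vertical axis) on each array, by group, with points for arrays and lines for group means. The 3 dB/dB arrays sit at 0.68 to 0.97, above the other 9.

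The genes whose pattern over the 12 arrays was most like Cat's, by Pearson correlation with the brighter Cat probe set among 9750 genes, were Agmo (r = 0.974), Ces1d (0.939), Aass (0.934), Dmgdh (0.930) and Hoga1 (0.930). Agmo encodes alkylglycerol monooxygenase, Ces1d a carboxylesterase, Aass the first enzyme of lysine breakdown, Dmgdh dimethylglycine dehydrogenase and Hoga1 an enzyme of hydroxyproline breakdown. Each was lowest on wild type 1, where Agmo read 4.92 against 7.01 to 9.01 (log2) elsewhere. The brighter Cat probe set was lowest there too, at 10.66 against 11.78 to 12.90 elsewhere. No ranking without that array was made. Of all genes ranked, 1.28% had r above 0.8. These are descriptions over arrays that share groups and normalisation.

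Gpx1, the glutathione peroxidase of cytosol and mitochondria, was bright in every group, and a larger share of its variance lay between groups (38.7%) than for any other member. With 3 arrays a group, some share arises without any group difference, and the share over all probe sets was not computed. Gpx1 read 13.24, 14.44 and 14.35 (log2) in wild type and 14.47, 14.43 and 14.47 in catalase-Tg. It read 13.81, 13.61 and 13.89 in dB/dB and 13.78, 14.54 and 14.50 in dB/dB catalase-Tg. The value of dB/dB catalase-Tg 1 fell among those of the dB/dB arrays, and wild type 1 lay below them. Group means were 14.01 ± 0.67 (SD, n = 3), 14.46 ± 0.02, 13.77 ± 0.14 and 14.28 ± 0.43 in the same order.

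With all arrays, the transgene difference of Gpx1 was 0.51 in dB/dB mice (log2, SE 0.32, limma adjusted p = 0.638, interval -0.19 to 1.21) and 0.45 in wild-type mice (SE 0.32, adjusted p = 0.674, interval -0.25 to 1.15). Neither passed. The first was 0.75 (adjusted p = 0.00747) without the 3 arrays of low weight and 0.67 (adjusted p = 0.00593) with array weights. It passed in both fits, as did 27.8% and 38.5% of all probe sets, and the arrays left out had been picked for lying far from their groups. Gpx1 in dB/dB against wild type was -0.24 (adjusted p = 0.801) with all arrays and -0.63 (adjusted p = 0.0149) without those 3, where 26.9% of all probe sets passed. Over the alternatives the adjusted p of these Gpx1 differences ranged up to 1, from 0.00593 for the transgene in dB/dB mice and from 0.0149 for dB/dB against wild type.

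Gpx4, the enzyme for lipid peroxides, followed Gpx1 over the arrays (r = 0.93). It read 11.87, 12.75 and 12.59 (log2) in wild type, 12.63, 12.80 and 12.79 in catalase-Tg, 12.30, 11.78 and 12.33 in dB/dB, and 11.83, 12.78 and 12.96 in dB/dB catalase-Tg. The catalase-Tg arrays were close together and high, and dB/dB catalase-Tg 1 was again as low as the dB/dB arrays. The transgene differed by 0.34 in wild-type mice (SE 0.33, limma adjusted p = 0.761) and by 0.39 in dB/dB mice (SE 0.33, limma adjusted p = 0.688). The latter passed without the 3 low-weight arrays (0.73, adjusted p = 0.0269) and with array weights (0.59, adjusted p = 0.0154), and its adjusted p reached 1 among the other alternatives. The other Gpx4 probe set, 1456193_x_at, gave 0.28 (SE 0.18, adjusted p = 0.648) and 0.29 (SE 0.18, adjusted p = 0.638) with all arrays, and in both comparisons every transgenic array lay above every array without the transgene, as in 5.74% and 4.87% of all probe sets.

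Gpx3, the secreted plasma enzyme, read close to the highest value of the file (15.66), where an array can saturate, which was not tested. It read 14.65, 15.15 and 14.99 (log2) in wild type, 15.26, 15.06 and 15.04 in catalase-Tg, 15.02, 15.02 and 14.97 in dB/dB, and 15.07, 15.10 and 15.14 in dB/dB catalase-Tg. Its SD within groups was 0.14, at percentile 4.8 among all probe sets tested. The dB/dB and dB/dB catalase-Tg arrays did not overlap, at means of 15.00 ± 0.03 (SD, n = 3) and 15.10 ± 0.03, the only gap of 24 between neighbouring group means of the members that exceeded the larger SD. The difference was 0.10 (SE 0.16, limma adjusted p = 0.832) and did not pass. Of all probe sets, 4.87% had every transgenic dB/dB array above every other dB/dB array, and 1 of 8 members did.

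Prdx2, the cytosolic peroxiredoxin, ran against the other members at its brighter probe set, 1418506_a_at. It read 12.02, 11.37 and 11.57 (log2) in wild type, 11.79, 11.49 and 11.51 in catalase-Tg, 12.11, 11.75 and 11.68 in dB/dB, and 11.78, 11.66 and 11.29 in dB/dB catalase-Tg. In each group the first array was the highest, and the ranges of all groups overlapped. All 7 correlations of the brighter Prdx2 probe set with another member were negative over the 12 arrays, from -0.81 to -0.49. All 21 correlations among the other members were positive, from 0.37 to 0.93. The arrays share groups and normalisation. The transgene differences of Prdx2 were -0.27 in dB/dB mice (limma adjusted p = 0.683) and -0.06 in wild-type mice (0.950), and dB/dB differed from wild type by 0.19 (0.788). The dimmer Prdx2 probe set, 1430979_a_at, read 7.17 to 7.76 and gave 0.10 and 0.25 where the brighter one gave -0.27 and -0.06, so the sign of the transgene differences was not shared. The dimmer one was highest on catalase-Tg 2 (7.76), where the brighter read 11.49. Correlations of the dimmer one were not computed, so the opposite course is shown for the brighter probe set only.

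Red blood cells are rich in Prdx2, and erythroid markers varied between arrays. Of 10 such markers listed, 5 had a probe set with that symbol alone and 2 passed the filter, Alas2 and Klf1. Hba-a1, a haemoglobin gene, stayed at the floor (2.30 to 2.32, log2). Alas2, the erythroid enzyme of haem synthesis, read 4.30 to 10.52 and was highest on catalase-Tg 1 and dB/dB 2, and Klf1 had group means of 4.29 to 4.69. The brighter Prdx2 probe set was highest on dB/dB 1 and wild type 1, where Alas2 read 6.16 and 6.32. The part of erythroid cells in the Prdx2 values was not tested.

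Prdx3, which removes peroxide in mitochondria, read 9.82, 10.65 and 10.42 (log2) in wild type and 10.09, 10.36 and 10.49 in catalase-Tg. It read 10.30, 9.73 and 10.10 in dB/dB and 9.52, 10.66 and 10.57 in dB/dB catalase-Tg, where the first array was the lowest of all 12. Its largest group difference was -0.25 in dB/dB against wild type (limma adjusted p = 0.798).

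Prdx4, the peroxiredoxin of the endoplasmic reticulum, varied most within wild type. It read 7.30, 9.12 and 8.07 (log2) in wild type and 8.29, 8.53 and 8.26 in catalase-Tg. It read 8.25, 7.93 and 8.37 in dB/dB and 8.07, 8.83 and 8.16 in dB/dB catalase-Tg. Group means ran from 8.17 to 8.36, and its group differences did not exceed 0.20 in size, the value of catalase-Tg against wild type (SE 0.39, limma adjusted p = 0.901). Its other probe sets, 1416166_a_at and 1435731_x_at, read lower, at group means of 6.55 to 6.66 and 4.25 to 4.55, and 1431269_at lay at the floor.

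**Figure D3:**
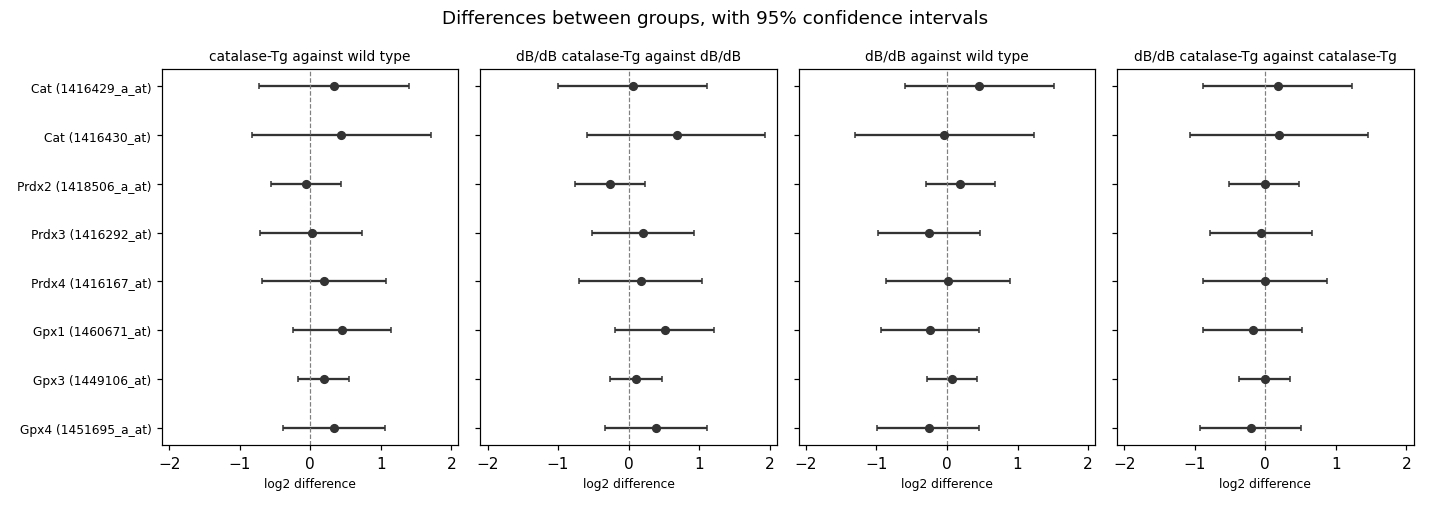
Log2 differences of the 8 probe sets in 4 comparisons (horizontal axis), with points for limma estimates over all 12 arrays and bars for 95% confidence intervals. Every interval includes 0, and those of the Cat probe sets are the widest.

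Counted over the 8 probe sets, limma called 0 in each of the 5 comparisons, and 0 had an unadjusted p under 0.05. The calls over all 18144 probe sets were few as well: 0.022% passed for the transgene in wild-type mice, 0.00551% for it in dB/dB mice, 0% for dB/dB without the transgene, 0.0276% for dB/dB with it and 0.00551% in the interaction. At an unadjusted p under 0.05 the counts over all probe sets were 1660, 1360, 755, 1245 and 297 in the same order. Of the 8 members, 7 were above 0 with the transgene in wild-type mice (median 0.27, against -0.02 over all probe sets) and 7 in dB/dB mice (median 0.19, against -0.02), with Prdx2 the exception in both. The members' median was -0.01 for dB/dB without the transgene, with 4 above and 4 below 0, and -0.01 for dB/dB with it, with 2 above and 6 below, where all probe sets had medians of -0.11 and -0.10. The comparisons share arrays, so these counts are not independent of one another. Apart from Gpx3 in dB/dB mice, 0 members had groups that did not overlap. Over all probe sets, groups did not overlap with the transgene higher in 5.74% and lower in 7.8% in wild-type mice and lower in 11.1% in dB/dB mice. For dB/dB these shares were 2.52% higher and 8.91% lower without the transgene, and 6.67% higher and 9.35% lower with it.

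The spread between arrays of a group was unequal among members. The within-group SD was 0.77 (log2) for the dimmer and 0.64 for the brighter Cat probe set, at percentiles 86.0 and 78.9 of all probe sets tested. Prdx4 followed with 0.52, Prdx3 and Gpx4 with 0.42 each and Gpx1 with 0.40, near the middle, and Prdx2 had 0.25 at percentile 24.7. Wild type 1 was the lowest array for 5 of the 8 probe sets. Differences between groups made up 4.4% (Prdx4) to 38.7% (Gpx1) of a member's variance. Some share arises without any group difference, and the share over all probe sets was not computed.

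All members but Prdx2 went up and down with the proximal tubule markers of the arrays, and the brighter Prdx2 probe set went against them. A score of 15 proximal tubule markers, the mean difference of each marker from its own mean over the arrays, read -1.79, 0.67 and 0.15 on wild type 1 to 3. The catalase-Tg arrays scored -0.09, 0.58 and 0.55, the dB/dB arrays -0.38, -0.49 and -0.25, and the dB/dB catalase-Tg arrays -0.27, 0.63 and 0.68. The score of 12 endothelial markers ran the other way, from -1.83 on catalase-Tg 2 to 1.82 on dB/dB 3, and read 1.55 on wild type 1 and 1.49 on dB/dB catalase-Tg 1. All 12 endothelial, 10 loop of Henle and distal tubule, 7 fibroblast and mural, and 5 podocyte markers tested were below 0 in both transgene comparisons and above 0 in both dB/dB comparisons, with none called. The other lists were mixed: collecting duct markers had 2 above and 3 below 0 in each transgene comparison, leukocyte markers 0 of 4 above in wild-type and 1 of 4 in dB/dB mice, and both erythroid markers were above 0 in each. Of the 15 proximal tubule markers themselves, 14 were above 0 with the transgene in wild-type mice (median 0.64) and 15 in dB/dB mice (median 0.71), also with none called. In whole tubule preparations, fewer cells of a type and less RNA per cell cannot be told apart.

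Over the 12 arrays the dimmer Cat probe set tracked the proximal tubule score most closely, with Pearson's r = 0.98 (permutation p = 3e-05, adjusted 0.00024 over 16 relations) and Spearman's rho = 0.95 (permutation p = 2e-05). Without wild type 1 and dB/dB catalase-Tg 3, the arrays farthest from the median score, r was 0.95, and within groups it was 0.98. The brighter Cat probe set had r = 0.87 (permutation p = 0.00158, adjusted 0.00316) and rho = 0.83 (permutation p = 0.00138), with 0.56 without those arrays. Gpx1 had r = 0.92 (permutation p = 3e-05, adjusted 0.00024) and rho = 0.87 (permutation p = 0.00055), with 0.88 without them and 0.93 within groups. For Gpx4 these values were r = 0.83 (permutation p = 0.00021, adjusted 0.00112) and rho = 0.90 (permutation p = 0.00022), with 0.85 without them. Prdx3 had r = 0.74 and rho = 0.86, and Prdx4 r = 0.81 and rho = 0.68 (permutation p for r = 0.00469 and 0.00153, adjusted 0.00682 and 0.00316). The permutations shuffled all 12 arrays freely, although arrays share groups and same-numbered arrays deviated together in some pairs of groups. The permutation p-values here and in the next paragraph can therefore be too small.

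Gpx3 had r = 0.77 (permutation p = 0.014, adjusted 0.0172) and rho = 0.65 (permutation p = 0.0255), but r was 0.27 without wild type 1 and dB/dB catalase-Tg 3, so that its relation rests on those arrays. The brighter Prdx2 probe set ran the other way, with r = -0.81 (permutation p = 0.00072, adjusted 0.00288), rho = -0.87 (permutation p = 0.00037) and -0.78 without those arrays. It went with the endothelial score instead (r = 0.79, permutation p = 0.0023, adjusted 0.00409). The dimmer Prdx2 probe set was not correlated with the scores. The members shared these relations with much of the array: 21.3% of the 18144 probe sets had r above 0.6 with the proximal tubule score and 19.8% below -0.6, against 7 and 1 of the 8 members. With the mean of the endothelial, podocyte and mural scores as a covariate, added after the values had been seen, the transgene difference in dB/dB mice was -0.26 for the dimmer Cat probe set, -0.04 for Gpx4 and 0.07 for Gpx1 (SE 0.28), and 0 members were called. The scores themselves differed between these groups, with endothelial scores of 0.84 to 1.82 in dB/dB and -1.19 to 1.49 in dB/dB catalase-Tg. Marker score and transgene therefore cannot be told apart in this fit.

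**Figure D4:**
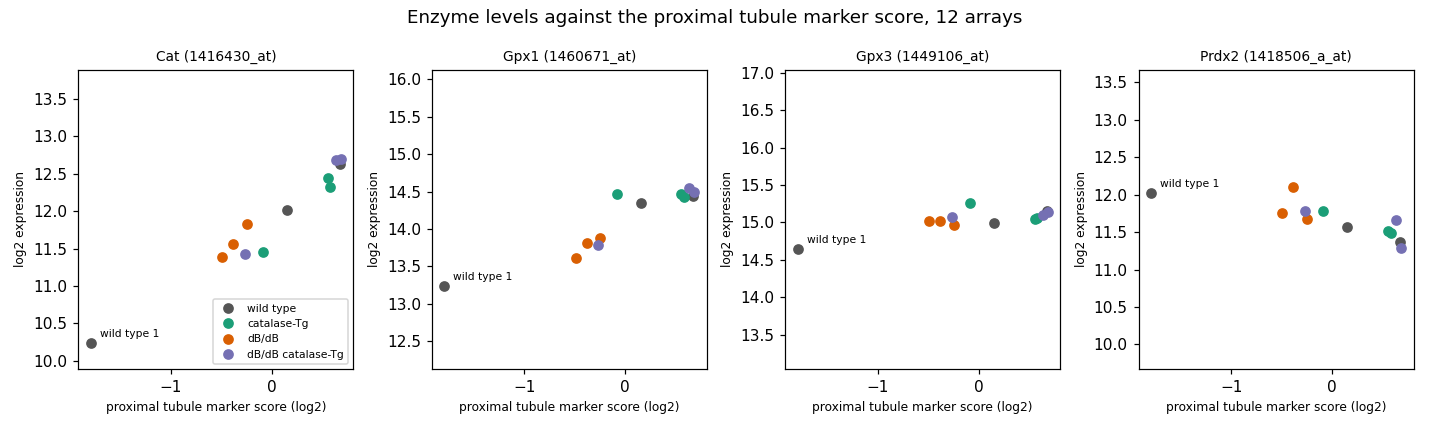
Log2 expression of Cat (dimmer probe set), Gpx1, Gpx3 and Prdx2 (brighter probe set) on the vertical axes against the score of 15 proximal tubule markers (horizontal axis, log2 difference from the mean over arrays), with 1 point per array coloured by group. Cat and Gpx1 go up with the score and Prdx2 goes down, and wild type 1 lies alone at -1.79.

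Genes that act around these enzymes, such as those that supply or recharge them, were read from 6 lists of 74 genes, of which 59 were tested. limma called 0 of 59 in every comparison, with 4 and 2 at an unadjusted p under 0.05 for the transgene in wild-type and dB/dB mice, 1 and 3 for dB/dB without and with the transgene, and 0 in the interaction. Their signs were uneven. In dB/dB against wild type 9 of the 59 were above 0, against 38.0% of all probe sets, and in dB/dB catalase-Tg against dB/dB 44 were above 0, against 48.3% of all probe sets.

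The list of thioredoxin and sulfiredoxin genes, which recharge peroxiredoxins, also held the sestrins Sesn1 and Sesn2. Of its 8 genes, 7 were below 0 in dB/dB against wild type (median -0.37) and 7 above 0 in dB/dB catalase-Tg against dB/dB (median 0.37). Sesn1 was the exception in both, at 0.45 and -0.50. Txn1, the cytosolic thioredoxin, had means of 11.88 (log2) in wild type and 12.37 in catalase-Tg mice, and of 11.46 and 12.18 in dB/dB mice without and with the transgene, and its difference between the dB/dB groups was 0.72 (SE 0.29, limma adjusted p = 0.636). Srxn1, the sulfiredoxin that repairs overoxidised peroxiredoxins, had means of 8.28, 8.19, 7.80 and 8.33 in the same order, lower in dB/dB than in wild type by -0.48 (SE 0.23, adjusted p = 0.767) and higher in dB/dB catalase-Tg than in dB/dB by 0.53 (SE 0.23, adjusted p = 0.636). Neither passed.

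Of 10 glutathione supply genes, 9 were above 0 in each transgene comparison (medians 0.48 and 0.53) and 9 below 0 in dB/dB against wild type (median -0.16). The proximal tubule markers had medians of 0.64 and 0.71 in the transgene comparisons, and their part in these shifts was not tested. Over all probe sets, 47.5% were above 0 with the transgene in wild-type mice and 48.3% in dB/dB mice. Gclm, the regulatory subunit of the enzyme that limits glutathione synthesis, was higher in dB/dB catalase-Tg than in dB/dB by 0.88 (SE 0.42, adjusted p = 0.636). All 11 selenoprotein genes, whose products build or share the selenocysteine that Gpx1, Gpx3 and Gpx4 need, were below 0 for dB/dB with the transgene (median -0.34), and 9 were below 0 in dB/dB against wild type (median -0.33). Selenop, the selenium carrier, had the smallest p of them in the former, at -0.58 (SE 0.25, adjusted p = 0.704), and Pstk, which phosphorylates the selenocysteine tRNA, in the latter, at -0.61 (SE 0.23, adjusted p = 0.767). Most probe sets of the array were below 0 too: 37.9% were above 0 for dB/dB with the transgene and 38.0% without it.

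The peroxisomal list joins genes of import, which brings catalase into peroxisomes, with genes of division. Of its 15 genes, 14 were below 0 in dB/dB against wild type (median -0.18). Over all probe sets, 38.0% were above 0 in that comparison (median -0.11) and 48.3% in dB/dB catalase-Tg against dB/dB (median -0.02). Pex5, the import receptor, had means of 5.97 (log2) in wild type and 5.07 in dB/dB, a difference of -0.89 (SE 0.44, adjusted p = 0.767). Of 13 oxidases and superoxide dismutases, which make peroxide, 12 were above 0 in dB/dB catalase-Tg against dB/dB (median 0.64) and 11 below 0 in dB/dB against wild type (median -0.33). Sod3, the extracellular superoxide dismutase, was higher in dB/dB catalase-Tg than in dB/dB by 1.55 (SE 0.70, adjusted p = 0.636), and Nox4, an oxidase that makes hydrogen peroxide in the kidney, was lower in dB/dB than in wild type by -0.95 (SE 0.59, adjusted p = 0.767). Maob, a monoamine oxidase of the mitochondrial surface, had the smallest p of the list in every comparison but the transgene in dB/dB mice, and in the 4 comparisons of groups its signs ran against those of most of the list. It had means of 6.04 (log2) in wild type, 3.95 in catalase-Tg mice, and 7.11 and 6.34 in dB/dB mice without and with the transgene. Its differences were -2.09 (SE 0.66, adjusted p = 0.502) and -0.78 (SE 0.66, adjusted p = 0.689) for the transgene in wild-type and dB/dB mice, and 1.07 (SE 0.66, adjusted p = 0.767) and 2.39 (SE 0.66, adjusted p = 0.573) for dB/dB without and with the transgene.

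Only Gpx6 and Gpx8 of the 5 other glutathione peroxidases passed the filter, and unlike Gpx1, Gpx3 and Gpx4 they were below 0 with the transgene. Gpx6 had means of 7.99 (log2) in wild type and 5.51 in catalase-Tg, a difference of -2.48 (SE 0.71, limma adjusted p = 0.441), and Gpx8 of 6.99 and 4.48, a difference of -2.51 (SE 0.89, adjusted p = 0.532). In dB/dB mice they had means of 8.77 and 8.38, and with the transgene 7.51 and 6.46. The endothelial, podocyte, and loop of Henle and distal tubule markers had medians of -1.21, -2.84 and -2.08 in catalase-Tg against wild type, so these genes lay lower along with markers of other kidney cells, whose part in it was not tested.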

How the data were processed

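The authors deposited log2 expression values, 1 per probe set and array, computed with GCRMA (background correction and normalisation between arrays) per the submitters' processing notes, which name limma too; versions are not given in the sources used here. No further normalisation was applied. The 64 array controls among 45101 probe sets were not used, and 18144 probe sets above 4 on at least 3 of 12 arrays were fitted in limma 3.58.1 (R 4.3.3) with a mean for each group, Benjamini-Hochberg adjustment over all of them and a threshold of 0.05. Intervals are 95% intervals of the fit. Gene symbols came from GEO's annotation of the array and were looked up in the RefSeq gene table of GRCm38.p6, which changed 0 of them. The number of arrays limits the precision. Correlations with marker scores used 100000 permutations of the 12 arrays, made without regard to group or array number.

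Genes were named by a rule: the members, up to 3 genes per list and comparison with the smallest p, the 5 genes most like Cat, and defining markers. Members, lists and tests were chosen with earlier results of these data known. Same-numbered arrays deviated together in catalase-Tg against wild type (correlations of deviations 0.396, 0.200 and 0.308 for numbers 1 to 3) and in dB/dB catalase-Tg against catalase-Tg (0.607, 0.453 and 0.426); the labels do not say what a number marks. Alternatives were a replicate block, other filters and normalisations, array weights, a second probe set, the groups alone, and leaving out each array; leaving out 3 arrays and a marker covariate were added after seeing the data.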

Additional observations from a re-analysis of the deposited data

How the results depend on the processing

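Limits come first. With 3 arrays a group, differences such as the 0.68 of dimmer Cat had intervals wider than their size, and values near the top of the range (Gpx3) may be compressed. Interactions were followed as counts only. Members called were 0 in every comparison without any filter, with the stricter filter, quantile normalisation, median centring, the groups compared alone, the replicate block, the marker covariate and each array left out. They were 3 in dB/dB catalase-Tg against dB/dB with array weights and also without the 3 arrays of low weight (the first of each group but dB/dB), and 2 in dB/dB against wild type without those 3. Of all probe sets, 38.5%, 27.8% and 26.9% passed in the same fits.

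Below, the comparisons are, in order, catalase-Tg against wild type (A), dB/dB against wild type (B), dB/dB catalase-Tg against dB/dB (C) and dB/dB catalase-Tg against catalase-Tg (D). Of 18144 probe sets, all 12 arrays gave 4, 0, 1 and 5 calls and 1 in the interaction. Without a filter the counts were 14 (A), 6 (B), 3 (C) and 6 (interaction). D had 1 call with the stricter filter, 3 with quantile normalisation and 883 with array weights, which gave 6989 in C. Groups compared alone gave 0 in A and 2 in C. The replicate block gave 0 in the interaction and changed no other count by more than 1.5 times and no call of a member, with exact permutation p = 0.594 and 0.156 for the average transgene differences of Cat. In the pairs of groups whose numbers do not pair by these values, same-numbered deviations correlated at 0.165, 0.145 and 0.097 (B) and at -0.045, -0.13 and 0.11 (C). Without the 3 low-weight arrays the counts were 31 (A), 4875 (B), 5043 (C), 23 (D) and 143 (interaction). Leaving out 1 array gave 3 to 270 calls in A (270 without wild type 2, 7 without wild type 1), 0 to 107 in B (107 without wild type 1), 0 to 4 in C (4 without wild type 1 and 0 without any one dB/dB array or dB/dB catalase-Tg 2), 1 to 22 in D (22 without wild type 1, 12 without wild type 2, and 1 to 3 without catalase-Tg 2 or 3 or any one dB/dB or dB/dB catalase-Tg array) and 0 to 2 in the interaction (2 without wild type 3, and 0 without wild type 1 or 2, catalase-Tg 2, or any one dB/dB or dB/dB catalase-Tg array).

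The signs of the following differences turned, and the cause was not tested. Quantile normalisation gave -0.03 for Prdx3 (A), 0.06 for dimmer Cat and -0.06 for Gpx3 (B), and 0.05, 0.05, 0.08 and 0.05 for Prdx2, Prdx3, Prdx4 and Gpx3 (D); median centring gave -0.05 for Prdx4 (B). Array weights gave -0.02 and -0.01 for Prdx3 and Prdx4 (A), -0.13 and -0.02 for Prdx4 and Gpx3 (B), and 0.17, 0.07, 0.04, 0.06 and 0.06 for Prdx3, Prdx4, Gpx1, Gpx3 and Gpx4 (D). Without the 3 low-weight arrays the values were -0.15, 0.03, -0.11, -0.20 and -0.02 for brighter Cat, Prdx2, Prdx3, Prdx4 and Gpx3 (A), -0.17, -0.42 and -0.07 for brighter Cat, Prdx4 and Gpx3 (B), and 0.19, 0.10, 0.07, 0.07 and 0.08 for Prdx3, Prdx4, Gpx1, Gpx3 and Gpx4 (D). The marker covariate gave -0.35, -0.41, 0.19, -0.40, -0.29 and -0.06 for brighter Cat, dimmer Cat, Prdx2, Prdx3, Prdx4 and Gpx4 (A), 0.58, 0.04, 0.05 and 0.02 for dimmer Cat, Prdx3, Gpx1 and Gpx4 (B), -0.70, -0.26, 0.01, -0.25, -0.36, -0.02 and -0.04 for all but Gpx1 in the order brighter Cat, dimmer Cat, Prdx2, Prdx3, Prdx4, Gpx3 and Gpx4 (C), and 0.20, 0.30, 0.07, 0.06 and 0.03 for Prdx3, Prdx4, Gpx1, Gpx3 and Gpx4 (D). The second probe set gave 0.25 and -0.02 for Prdx2 and Prdx4 (A), -0.05 for Prdx4 (B), 0.10 for Prdx2 (C) and 0.08 for Prdx4 (D).

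Leaving out 1 array moved these differences across 0. In A the ranges were -0.29 to 0.72 and -0.25 to 0.94 for the brighter and dimmer Cat probe sets, -0.20 to 0.12 for Prdx2, -0.22 to 0.19 for Prdx3 and -0.24 to 0.67 for Prdx4. In B they were -0.17 to 0.84 and -0.73 to 0.46 for the Cat probe sets, -0.42 to 0.49 for Prdx4 and -0.07 to 0.18 for Gpx3. In C they were -0.17 to 0.39 for brighter Cat and -0.07 to 0.31 for Prdx4. In D they were -0.05 to 0.51 and -0.12 to 0.61 for the Cat probe sets, -0.12 to 0.13 for Prdx2, -0.27 to 0.30 for Prdx3, -0.25 to 0.13 for Prdx4, -0.32 to 0.06 for Gpx1, -0.05 to 0.05 for Gpx3 and -0.43 to 0.13 for Gpx4. The average transgene differences of Cat ranged from -0.12 to 0.39 and from 0.22 to 0.81.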
